A study of Mus musculus with 16 samples.

Results

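Border-associated macrophages are the macrophages of the brain's surfaces, distinct from the microglia within the tissue, and 307 of 147873 hippocampal nuclei (0.208%) were taken as such here. A nucleus was a barcode with at least 500 UMIs (unique molecular identifiers, each standing for 1 captured RNA molecule), at least 300 genes and at most 5% mitochondrial UMIs. A macrophage nucleus held at least 2 UMIs of Mrc1, F13a1 and Cd163 together and at least 1 UMI of the immune genes Inpp5d, Csf1r, Dock8 and Ikzf1. It held at most 1 UMI of the neuronal genes Slc17a7, Gad1 and Gad2, at most 1 of the myelin genes Mog and Mag, and at most 1 of the fibroblast genes Col1a2 and Bnc2. The counts of these 14 genes chose the members, so the members were selected on these values, which are given as a description and were not tested.

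Border-associated macrophages line the perivascular spaces of arterioles and venules, the leptomeninges and the choroid plexus. They take up proteins, lipoproteins and debris from the cerebrospinal and interstitial fluids through scavenger and lectin receptors such as the mannose receptor Mrc1 and the haemoglobin receptor Cd163, and F13a1 encodes a subunit of coagulation factor XIII. They are commonly divided into cells rich in the hyaluronan receptor Lyve1 and cells rich in MHC class II, the proteins that present antigen to helper T cells, and the latter are known to be replenished in part from blood monocytes.

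Nuclear RNA of the hippocampus was sequenced from 16 female mice aged 9 months, with 4 mice in each of 4 groups. Mice of the genotype Ch25h+/+ formed 2 of the groups, with tau (Ch25h+/+ Tau+) or without it (Ch25h+/+ Tau-). The other 2 carried the label Ch25h-/-, again with tau (Ch25h-/- Tau+) or without (Ch25h-/- Tau-). Ch25h encodes cholesterol 25-hydroxylase, an interferon-induced enzyme that makes 25-hydroxycholesterol, and the series' title places it between STING, interferon and tau pathology. The labels name neither the tau line nor the promoter that drives it, and neither the part of Ch25h that was deleted nor the background strain. Ch25h itself did not separate the genotypes: its level over all nuclei of a library was 0.304 to 0.738 CPM (UMIs scaled to a common total of UMIs) in Ch25h+/+ Tau+, 0.173 to 0.232 in Ch25h+/+ Tau-, 0.286 to 0.547 in the libraries labelled Ch25h-/- Tau+ and 0.214 to 0.438 in those labelled Ch25h-/- Tau-. Since the deleted part is not given, whether these 3' tags lie within it was not tested, and every direction below that involves Ch25h rests on the label. The macrophages held 2 Ch25h UMIs in all, 1 in Ch25h+/+ Tau+ and 1 in the group labelled Ch25h-/- Tau-. The libraries held 8130 to 11654 nuclei each, with a median of 3846 to 6508 UMIs per nucleus. Any pair of libraries shared 10 to 40 nucleus barcodes, and no macrophage barcode was a macrophage in more than 1 library. Replicates 1 and 2 of every group stood apart from replicates 3 and 4 along the first principal component of the libraries' deviations from their group means (34.1% of the variance), a split that the labels do not name.

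By the rule each of these nuclei held at least 2 UMIs of the defining markers, so their presence is no check of the label. Mrc1 was found in 260 of the 307, F13a1 in 264 and Cd163 in 155, and 136 nuclei held all 3 (median 10 UMIs of the 3 genes together). Of 35 other genes known for border macrophages, such as Pf4, Dab2, Stab1 and Lyve1, the nuclei held 8494 CPM in sum, against 1225 CPM in 6136 microglia taken by the same filters. These microglia had at least 2 UMIs of the 4 immune genes and none of Mrc1, F13a1 and Cd163. The sum over 16 homeostatic microglia genes ran the other way, at 2276 CPM in macrophages and 11067 CPM in microglia. These 35 genes are long-known companions of the markers that chose the nuclei, so they describe the nuclei and are not independent evidence.

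The edge of the rule held nuclei of another composition. The 42 nuclei with exactly 2 marker UMIs summed to 894 CPM of the 35 border genes and 26232 CPM of 10 neuronal genes, and the 139 nuclei left out with 1 marker UMI summed to 624 and 30764 CPM. Over all members the neuronal sum was 14189 CPM, against 8006 CPM in microglia and 22073 CPM in the free RNA of barcodes under 100 UMIs. Of the 307 members, 271 held at least 3 UMIs of the 35 border genes and 36 held fewer. Among the 35 members with 5000 or more UMIs, 20 were of the latter kind. The doublet caller Scrublet marked 32 of the 307 (10.4%), among them 16 of the 35 members with 5000 or more UMIs. The share of nuclei to be marked was set beforehand in proportion to the number of nuclei in a library. It ran from 6.51 to 9.33% of all nuclei of a library, so the number marked is no estimate of how many doublets there were.

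Markers of other blood and border cells were present at different levels. T-cell genes summed to 84.4 CPM, against 103 in microglia, with Cd3e at 0. Of 9 genes of monocytes and neutrophils, 6 were at 0, S100a8 and Ly6c2 among them, and 35 of the 38 UMIs of this list were of the monocyte chemokine receptor Ccr2. B-cell genes summed to 551 CPM, against 228 in microglia, with Cd79b, Ms4a1 and Pax5 at 0 and 417 UMIs of Bank1. The endothelial list summed to 70.1 CPM (114 in microglia) with Cdh5 at 0, and in single libraries to 527 CPM in Ch25h-/- Tau+ replicate 1 and 0 to 177 CPM in the others. The mural list summed to 33.8 CPM (21.5 in microglia), with 158 CPM in that same library and at most 72.9 in the others, and the fibroblast list to 362 CPM (194 in microglia) with Col3a1 at 0. Choroid plexus genes summed to 636 CPM (437 in microglia), with 4485 CPM in Ch25h-/- Tau+ replicate 3 and 37.4 to 553 CPM in the other libraries.

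Members of 2 of the libraries in the tests of genes stood apart. In Ch25h-/- Tau+ replicate 4, 5 of 8 members held fewer than 3 border-gene UMIs, the 35 genes summed to 1516 CPM and the neuronal genes to 37488 CPM. In Ch25h+/+ Tau- replicate 2, 5 of 9 members did, with 2411 and 32403 CPM. In the other 14 libraries it was 26 of 290 (8.97%). Those 14 include Ch25h-/- Tau- replicate 2, whose 3 macrophage nuclei summed to 3812 CPM of the border genes and 31134 CPM of the neuronal genes. With only 3 nuclei it was left out of the tests of genes, which need 5, so 15 libraries entered them. It stayed in the tests of shares.

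**Figure D1:**
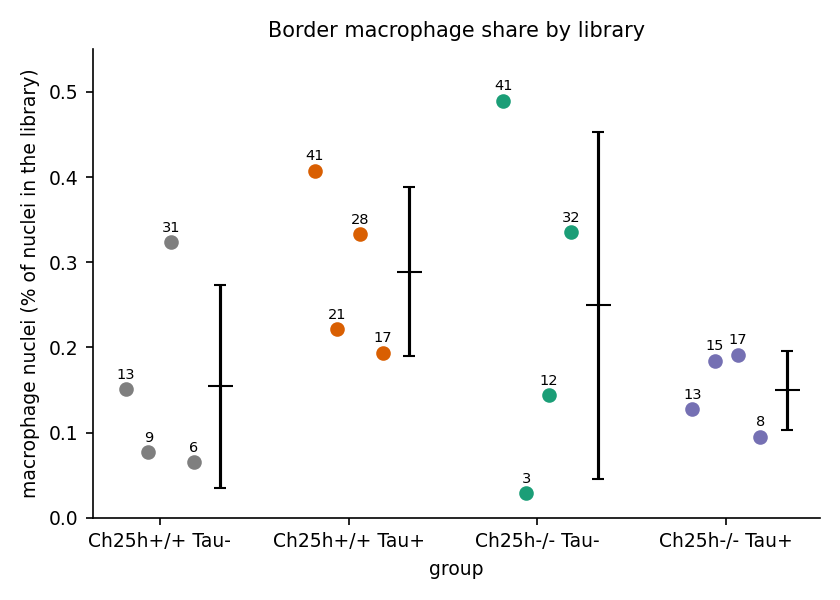
Macrophage nuclei as a percentage of all nuclei of a library (vertical axis) in the 4 groups (horizontal axis), with 1 point per library, its number of macrophage nuclei above it, and the group mean ± SD (n = 4) as a bar beside the points. The Ch25h+/+ Tau+ libraries lie between 0.194 and 0.407% and those labelled Ch25h-/- Tau+ between 0.0954 and 0.192%, and the Tau- groups spread more widely.

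The number of macrophages varied widely between mice of the same group. The share of macrophages among nuclei ran from 0.0291 to 0.490% over the 16 libraries (median 0.188%), a 16.8-fold range. In Ch25h+/+ Tau+ the shares were 0.407, 0.221, 0.333 and 0.194%, with a mean of 0.289 ± 0.099 (SD, n = 4). In Ch25h+/+ Tau- they were 0.151, 0.0772, 0.324 and 0.0653%, mean 0.154 ± 0.119 (SD, n = 4). These 2 groups overlapped.

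The libraries labelled Ch25h-/- Tau+ held 0.128, 0.185, 0.192 and 0.0954%, mean 0.150 ± 0.046 (SD, n = 4). Those labelled Ch25h-/- Tau- held 0.490, 0.0291, 0.144 and 0.335%, mean 0.250 ± 0.204 (SD, n = 4). The last group contained both the highest and the lowest library of the series. A share of nuclei cannot tell fewer macrophages apart from a dissection that took less of the vessels, meninges and choroid plexus.

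No difference between genotypes passed the test. Each of 6 contrasts had an exact permutation test, two-sided, with Benjamini-Hochberg adjustment over the 6. Among Tau+ mice the share was lower by 0.139 percentage points in the libraries labelled Ch25h-/- and these did not overlap those of Ch25h+/+ (exact p = 0.0286, the smallest that 70 arrangements of 4 against 4 allow, adjusted p = 0.171). The groups overlapped as a percentage of immune nuclei, with a higher minimum of UMIs per nucleus and with 3 or more marker UMIs (exact p = 0.0571 each), and with Scrublet doublets removed (exact p = 0.114). The tau effect in Ch25h+/+ was 0.135 percentage points (exact p = 0.114, adjusted p = 0.343), and in the mice labelled Ch25h-/- it was -0.0997 (exact p = 0.400, adjusted p = 0.729), with a range of -0.173 to -0.0197 on leaving out single libraries. Without tau, the difference for the label Ch25h-/- was 0.0952 (exact p = 0.486, adjusted p = 0.729), with a range of 0.0152 to 0.169. Over both genotypes the tau effect was 0.0175 (exact permutation p = 0.809), with a range of -0.0193 to 0.0575 on leaving out single libraries. With the tau states joined, the difference for the label Ch25h-/- was -0.0219 (exact permutation p = 0.760), with a range of -0.0619 to 0.0148, so both ranges include either sign. Within replicates 1 and 2 the difference for the label among Tau+ mice was -0.158, and within replicates 3 and 4 it was -0.120.

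**Figure D2:**
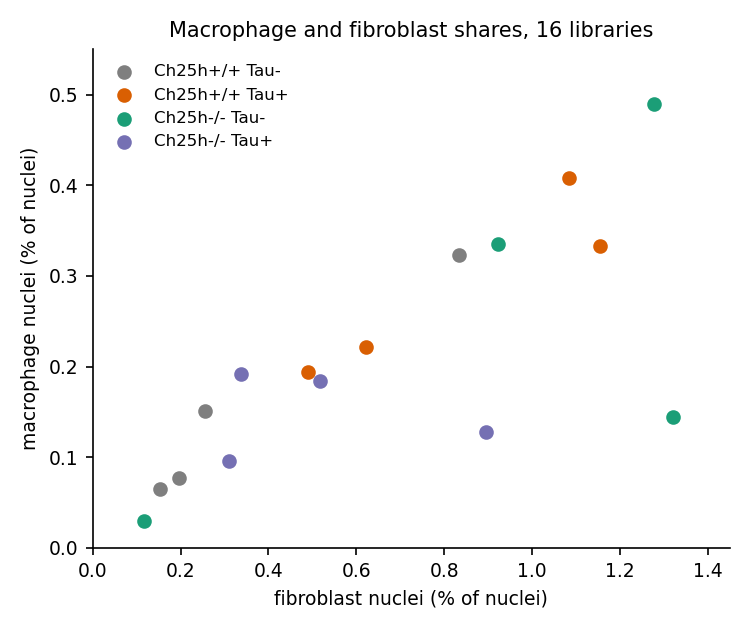
Macrophage nuclei against fibroblast nuclei, each as a percentage of all nuclei, with 1 point per library coloured by group. Libraries with more fibroblasts mostly held more macrophages (Pearson r = 0.747 over 16 libraries), and Ch25h-/- Tau- replicate 3, with 1.32% fibroblasts and 0.144% macrophages, lies apart from that trend.

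The share of macrophages moved with the shares of other cells of the brain's borders. Fibroblasts (4 or more UMIs of Col1a2 and Bnc2) made up 0.116 to 1.32% of a library, and their share correlated with that of macrophages over the 16 libraries at Pearson r = 0.747 and Spearman rho = 0.732. These values are a description with no test, since the macrophage rule also used Col1a2 and Bnc2. The Pearson correlation was 0.866 without the 2 libraries farthest from the median, 0.881 within replicates 1 and 2 and 0.589 within replicates 3 and 4. For choroid plexus epithelium (3 or more UMIs of Folr1, Kl and Otx2) it was r = 0.697 (permutation p = 0.00298, adjusted over 3 relations 0.00313) and rho = 0.691 (permutation p = 0.00408), with 0.624 without the 2 farthest libraries. For endothelial cells (4 or more UMIs of Flt1, Cldn5 and Ptprb) it was r = 0.691 (permutation p = 0.00313, adjusted 0.00313) and rho = 0.621 (permutation p = 0.0120), with 0.692 without the 2 farthest. All 4 shares are parts of the same library total. The choroid plexus share ran from 0.0582 to 2.81%, and its 3 lowest libraries, Ch25h+/+ Tau- replicate 4 (0.0762%), Ch25h-/- Tau+ replicate 4 (0.0715%) and Ch25h-/- Tau- replicate 2 (0.0582%), lay among the 4 lowest in macrophages.

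**Figure D3:**
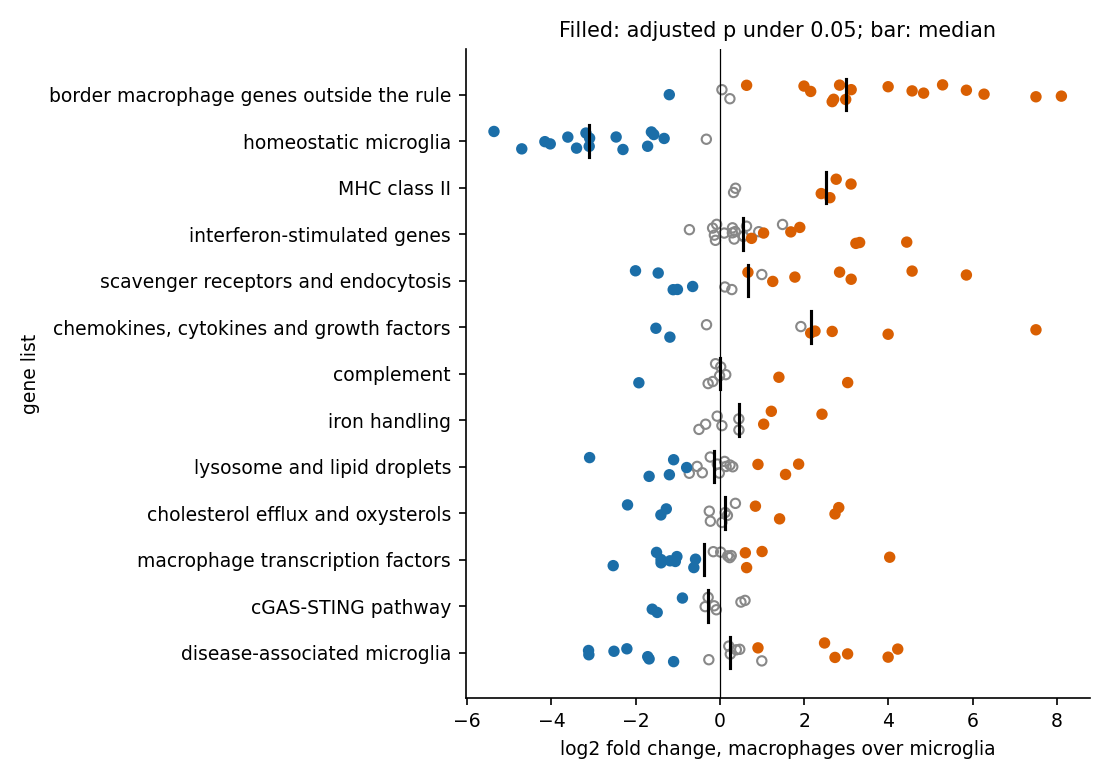
Log2 fold change of macrophages over microglia (horizontal axis) for the tested genes of 13 lists (vertical axis), with 1 point per gene, filled where the adjusted p was under 0.05 (orange higher, blue lower in macrophages), and a bar at the median of each list. Border macrophage genes lie mostly above 0 (median 2.99) and homeostatic microglia genes below 0 (median -3.10), while several other lists hold called genes on both sides.

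Macrophages and microglia of the same mice differed in many genes. UMIs were summed per library and cell type, and edgeR's quasi-likelihood test with the library as a block called 1399 of 7346 genes at a Benjamini-Hochberg adjusted p under 0.05 (19%), 535 of them higher in macrophages (7.28%) and 864 lower (11.8%). Per library, each type's 15 values did not overlap in 170 genes (2.31% of the 7346). Among the genes with the highest folds in macrophages were Ifi202b, Ms4a4a, Pf4, F630028O10Rik, Aoah and Dab2. Those highest in microglia include Sall1 and Tmem119, genes of microglial identity. With DESeq2's size factors the split was 610 higher and 763 lower in place of 535 and 864.

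Genes of uptake were found on both sides. Dab2, an adaptor that carries lipoprotein receptors into clathrin-coated pits, measured 187 CPM in the lowest macrophage library, 1654 in the median and 2192 in the highest, and 10.8, 24.1 and 37.5 CPM in microglia. No macrophage library overlapped the microglial range (log2 fold change 5.85 ± 0.27 SE, edgeR adjusted p = 6.62e-16). Stab1, a receptor for modified lipoproteins, measured 187, 1117 and 2250 CPM against 84.9, 158 and 221 (2.84 ± 0.20, edgeR adjusted p = 7.79e-14). Its lowest macrophage library, Ch25h-/- Tau+ replicate 4, lay within the microglial range. The scavenger receptors Msr1 (log2 fold change 4.56) and Colec12 (3.12) were also higher. Of 22 scavenger and endocytosis genes 15 were tested, and 7 were higher and 5 lower, beside 7.28% higher and 11.8% lower over all 7346 genes. The lower ones were Itgb5 (-2.0), Mertk (-1.46), Itgav (-1.11), Lrp1 (-1.01) and Scarb2 (-0.65), whose call was lost in 15 of 24 alternatives. Mertk is the receptor with which microglia engulf phosphatidylserine-coated cells and debris.

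The Lyve1-type genes held few UMIs in microglia. Lyve1 held 82 UMIs in macrophages and 1 in microglia, a ratio of levels of 1240 (95% counting interval 216 to 49564). Cd209f held 168 and 1 (ratio 2540, interval 450 to 100927), Cbr2, a carbonyl reductase, 108 and 2 (ratio 817, interval 221 to 6828), and the galactose lectin Clec10a 94 and 2 (ratio 711, interval 191 to 5954). The filter on low counts was applied to the sums of both types together, and of 8 Lyve1-type genes only Pf4 passed it and was tested. Summed, the 8 genes measured 736 CPM in macrophages and 3.01 CPM in microglia. The Cd209 cluster on chromosome 8 (chr8:3743397-4137707, GRCm38), chosen after its values were seen, holds 7 genes. Cd209g held 174 UMIs in macrophages and none in microglia (at least 877-fold higher, against a floor of 3 counts over the microglia), and Cd209b 104 and none (at least 524-fold higher). The intervals and floors cover counting error only. The microglia were chosen to hold none of Mrc1, F13a1 and Cd163, so these ratios also carry that choice of nuclei and are a description.

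The Ms4a genes lie together on chromosome 19 (chr19:10962293-11640851, GRCm38) and encode membrane proteins with 4 spans that sit beside Fc receptors and other immune receptors. The cluster was chosen after its values were seen, and all 5 of its 19 genes that were tested were higher in macrophages. The filter took both types together, so genes near 0 in microglia, such as Ms4a4a, could enter only through the macrophage libraries. This count is therefore a description and no evidence about the cluster. Ms4a4a measured 0, 204 and 580 CPM in the lowest, median and highest macrophage library and 0, 0 and 2.01 CPM in microglia (8.11 ± 0.36). One macrophage library, with no UMI, overlapped the microglia. Ms4a7, a marker long used to tell macrophages from microglia, measured 32.1, 321 and 626 CPM against 0, 5.12 and 30.9, and the types did not overlap (4.84 ± 0.51, edgeR adjusted p = 2.51e-06). Ms4a6c (2.99), Ms4a6b (2.70) and Ms4a6d (1.79) followed. The near-identical genes of this family can share reads, so the values of its single members are uncertain.

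Other genes named for their fold were also higher. Aoah, which removes acyl chains from bacterial lipopolysaccharide, measured 41.5, 561 and 1085 CPM in macrophages and 0, 4.26 and 16.3 in microglia, without overlap (6.27 ± 0.43, edgeR adjusted p = 1.04e-08). Cd38, an ectoenzyme that degrades NAD (5.29), and Cmah, which modifies sialic acid (5.19), were higher, as were the metalloprotease gene Adam33 (4.99) and the unannotated long RNA F630028O10Rik (6.34). Lyz2, lysozyme, measured 125, 663 and 1322 CPM against 0, 24.1 and 105, without overlap (4.22 ± 0.36, edgeR adjusted p = 1.07e-07).

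Of 29 chemokine, cytokine and growth factor genes 9 were tested, 5 of them higher and 2 lower (7.28 and 11.8% over all 7346 genes). Pf4, platelet factor 4, measured 0, 153 and 195 CPM against 0, 0 and 3.78 (7.51 ± 0.40). Pf4 is one of the border genes that describe the nuclei. It was near 0 in microglia and could pass the filter only through the macrophage libraries, so its fold is a description. Igf1, insulin-like growth factor 1, measured 32.1, 219 and 395 CPM against 0, 3.78 and 58.5 (4.0 ± 0.51, edgeR adjusted p = 1.90e-05). Tgfbi (2.67), Pdgfc (2.26) and Gas6, the ligand of the TAM receptors Tyro3, Axl and Mertk (2.16), were higher too. The growth factor genes Pdgfb (-1.52) and Tgfb1 (-1.19) were lower.

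Cholesterol handling differed gene by gene. Apoe, the main apolipoprotein of the brain, measured 312, 5156 and 9816 CPM in the lowest, median and highest macrophage library and 70.6, 517 and 2831 CPM in microglia (2.73 ± 0.41, edgeR adjusted p = 0.000128). The macrophage libraries below the microglial maximum were Ch25h-/- Tau+ replicate 4 and replicates 2 and 3 of Ch25h+/+ Tau-. Pltp, the phospholipid transfer protein (2.82), Cyp27a1, the sterol 27-hydroxylase (1.42), and Srebf2, the regulator of cholesterol synthesis (0.85), were higher, of which Srebf2 lost its call under 3 of 23 alternatives. Mylip, which marks the LDL receptor for degradation (-2.19), Lpcat3 (-1.4) and the exporter Abcg1 (-1.27) were lower. The exporter Abca1 measured 161, 419 and 871 CPM against 212, 358 and 528 (0.05 ± 0.18, edgeR adjusted p = 0.901). Cyp7b1, which clears 25-hydroxycholesterol (0.13, edgeR adjusted p = 0.842), and Gpr183, the receptor of its product (-0.22, edgeR adjusted p = 0.472), were not called. In all, 4 of 13 tested genes of this list were higher and 3 lower (7.28 and 11.8% over all 7346 genes).

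The Ifi200 genes, a cluster on chromosome 1 (chr1:173350879-174031810, GRCm38) that encodes DNA-binding proteins of interferon-exposed cells, were also chosen after their values were seen. Of 13 genes 7 were tested, 5 were higher and 1 lower in macrophages. Genes near 0 in microglia, such as Ifi202b, could pass the filter only through the macrophage libraries, so these counts are a description. Ifi202b measured 32.1, 158 and 367 CPM in the lowest, median and highest macrophage library and at most 1.96 CPM in microglia, which held 2 UMIs of it against 126 (ratio 953, counting interval 258 to 7952). Ifi203 measured 41.5, 226 and 557 CPM against 0, 6.82 and 26.6 (4.66 ± 0.46, edgeR adjusted p = 5.51e-07). Both genes separated the types in every library. Mndal (4.44), Ifi207 (3.23) and Ifi213 (2.13) were higher, Aim2, the inflammasome's DNA sensor, was lower (-0.74), and Ifi204 was not called (1.49, edgeR adjusted p = 0.107). Ifi213 lost its call under 5 of 16 alternatives and Aim2 under 3 of 24. Members of this family are near-identical in parts, so reads could be split between them.

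The promoters of these genes are shown because the same motif recurs in them. The windows are of 300 bases, from 250 before to 50 after the start, from RefSeq (GRCm38.p6), on the minus strand and printed 5′ to 3′. Capitals mark a pair of GAAA with 2 bases between them (a pair of TTTC where the match is on the other strand), the paired core that interferon regulatory factors are known to bind. The windows are chr1:173741760-173742059 for Ifi207, chr1:173942443-173942742 for Ifi203, chr1:173599223-173599522 for Ifi213, chr1:173880138-173880437 for Mndal and chr1:173982795-173983094 for Ifi202b, which holds no match.
Ifi207: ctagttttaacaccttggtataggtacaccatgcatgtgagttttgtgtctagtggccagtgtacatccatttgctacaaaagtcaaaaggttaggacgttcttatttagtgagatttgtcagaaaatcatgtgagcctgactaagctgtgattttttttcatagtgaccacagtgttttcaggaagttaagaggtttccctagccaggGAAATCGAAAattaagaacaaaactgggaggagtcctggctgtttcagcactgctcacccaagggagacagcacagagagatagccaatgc
Ifi203: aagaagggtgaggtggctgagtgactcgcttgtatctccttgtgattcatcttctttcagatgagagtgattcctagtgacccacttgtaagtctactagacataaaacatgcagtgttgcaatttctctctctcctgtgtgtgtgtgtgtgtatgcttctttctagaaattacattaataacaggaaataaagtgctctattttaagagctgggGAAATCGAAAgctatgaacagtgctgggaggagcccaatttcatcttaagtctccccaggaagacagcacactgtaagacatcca
Ifi213: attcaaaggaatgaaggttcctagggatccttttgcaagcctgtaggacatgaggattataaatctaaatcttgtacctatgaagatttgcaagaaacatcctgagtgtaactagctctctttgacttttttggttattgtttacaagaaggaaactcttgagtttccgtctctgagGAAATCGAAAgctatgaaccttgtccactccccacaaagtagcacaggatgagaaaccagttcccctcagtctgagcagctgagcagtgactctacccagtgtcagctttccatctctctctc
Mndal: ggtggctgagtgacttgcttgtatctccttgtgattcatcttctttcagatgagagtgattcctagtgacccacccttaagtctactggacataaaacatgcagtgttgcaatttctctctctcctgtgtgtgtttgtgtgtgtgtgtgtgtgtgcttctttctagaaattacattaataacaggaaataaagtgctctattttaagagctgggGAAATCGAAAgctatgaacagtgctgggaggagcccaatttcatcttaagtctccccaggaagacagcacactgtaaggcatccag
Ifi202b: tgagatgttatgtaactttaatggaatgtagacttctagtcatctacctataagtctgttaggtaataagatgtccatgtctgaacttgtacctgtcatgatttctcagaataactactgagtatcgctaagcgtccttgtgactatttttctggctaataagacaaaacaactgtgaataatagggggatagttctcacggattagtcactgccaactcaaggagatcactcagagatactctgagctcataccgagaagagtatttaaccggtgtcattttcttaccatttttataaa
The motif was present in promoters of 4 of the 5 Ifi200 genes that were higher (5 of 7 windows, 71.4%). Of the 32851 windows searched, 3.44% held it. The printed windows of Ifi203 and Mndal are nearly the same sequence around the match, so the Ifi200 windows are not independent occurrences. Mndal and Ifi203 each have 2 windows that overlap, and the second window of Ifi203 (chr1:173942623-173942922) does not contain the motif. Of the 7 higher genes in a list of interferon-stimulated genes, 2 are Ifi200 genes from above and 6 had windows. Of the 6, 4 held the motif (5 of 8 windows, 62.5%). The same motif was in 3 of 14 windows (21.4%) of the 12 genes highest in macrophages. Among border macrophage genes called higher it was in 2 of 16 windows (12.5%). Among the 12 genes highest in macrophages, 10 matched a window, and the PU.1 motif GAGGAAGT (ACTTCCTC on the other strand) was in 1 of their 14 windows (Pf4), against 3.20% of all. The MAF motif TGCTGAC, which reads as GTCAGCA when it lies on the other strand, was in none of the 14, against 4.67% of all. The gene sets searched held only genes called higher. Whether the motif was as frequent in members of the same family and list that were not called was not tested. A match is a description of letters and no evidence of binding.

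Some other interferon-stimulated genes were higher as well. Of 22 tested in the list, 7 were higher, 2 of them from the cluster above, and none lower, with a median log2 fold change of 0.56 against -0.10 over all 7346 genes. They were Mndal, Oas2 (3.32), Ifi207, Ddx60 (1.90), Bst2 (1.69), Sp100 (1.04) and Epsti1 (0.75), of which Sp100 lost its call under 2 of 24 alternatives and Epsti1 under 1. Rnf213 was not called (0.56, edgeR adjusted p = 0.134). Of 9 tested genes of the cGAS-STING pathway, which senses cytosolic DNA, none was higher and 3 were lower. Over all genes 7.28% were higher and 11.8% lower, the shares beside which both lists stand. The lower cGAS-STING genes were Tmem173, which encodes STING (-1.60), Cgas (-1.49) and Irf3 (-0.89). Irf3 lost its call under 4 of 23 alternatives and Cgas under 1 of 22, while Tmem173 kept it under all 23. Tmem173 measured 0, 19.8 and 69.6 CPM in macrophages against 46.3, 64.4 and 107 in microglia. No MHC class I gene of 8 tested was called.

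Among 18 tested transcription factor genes 4 were higher and 9 lower in macrophages (7.28 and 11.8% over all 7346 genes). Rbpj, the nuclear effector of Notch, measured 193, 2048 and 2961 CPM against 48.9, 98.3 and 156, and the types did not overlap (4.03 ± 0.26, edgeR adjusted p = 2.33e-11). Etv1 (1.0), Maf (0.64) and Nfatc2 (0.61) were higher, of which Maf lost its call in 6 of 24 alternatives and Nfatc2 in 13. The lower genes included Irf8 (-1.50), Bach2 (-1.18), Mef2a (-1.06), Irf5 (-1.02), Spi1, which encodes PU.1 (-0.62), and Mef2c (-0.58). Spi1 lost its call in 10 of 24 alternatives and Mef2c in 2.

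Most genes of microglial identity were lower. Of 16 homeostatic genes 15 were lower in macrophages and Fcrls was not called (-0.32, edgeR adjusted p = 0.288), with a median of -3.10. The purinergic receptor gene P2ry12 (-1.57), Siglech (-1.62) and the fractalkine receptor gene Cx3cr1 (-1.71) were lower by less than that median. Sall1, a microglial transcription factor, held 4 UMIs in all macrophages and 2654 in microglia, with 0, 0 and 33.0 CPM in the lowest, median and highest macrophage library against 165, 225 and 365 (-5.36 ± 0.38, edgeR adjusted p = 4.10e-16). Tmem119 held 4 and 1592 UMIs (-4.70 ± 0.42, edgeR adjusted p = 5.47e-13). The adhesion receptor gene Adgrg1 held no UMI in macrophages and 711 in microglia (at least 15.7-fold lower), Myo18b none and 1078 (at least 23.8-fold lower) and Mlph 3 and 1468 (ratio 32.4, counting interval 11.1 to 157).

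Lysosome, activation and complement genes included both higher and lower ones. Beside the counts of these lists stand the 7.28% higher and 11.8% lower over all 7346 genes. Of 18 tested lysosome and lipid droplet genes Ctsc (1.56), Plin2 (1.87) and Ctsb (0.91) were higher, and 5 were lower, among them the cathepsin genes Ctsd (-1.68), Ctss (-1.20) and Ctsl (-1.10). Of 19 tested genes of disease-associated microglia 6 were higher, namely Lyz2, Igf1, Cybb (3.03), Apoe, Lilrb4a (2.49) and Ctsb, and 7 were lower, among them Cd9 (-3.12) and Trem2 (-1.71). Of 9 iron and haem genes the biliverdin reductase genes Blvrb (2.43) and Blvra (1.22) and the ferritin receptor gene Ncoa4 (1.04) were higher and none was lower. Ncoa4 lost its call under 3 of 22 alternatives. Of 9 complement genes C4b (3.04) and the anaphylatoxin receptor gene C5ar1 (1.4) were higher and Itgam was lower (-1.92).

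Of 6 tested MHC class II genes 4 were higher in macrophages, beside 7.28% over all 7346 genes. Cd74, the invariant chain, measured 0, 631 and 1508 CPM in the lowest, median and highest macrophage library and 4.03, 92.0 and 373 CPM in microglia (2.41 ± 0.62, edgeR adjusted p = 0.0122). H2-Aa (2.61), H2-Ab1 (2.76) and H2-Eb1 (3.11) gave like values. Macrophage libraries overlapped the microglial range for each of the 4.

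**Figure D4:**
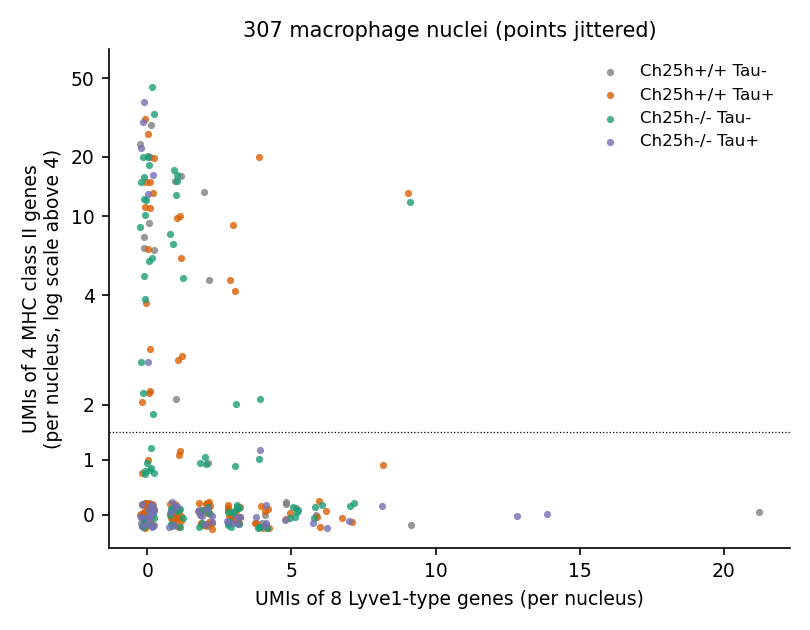
UMIs of 4 MHC class II genes (vertical axis, log scale above 4) against UMIs of 8 Lyve1-type genes (horizontal axis) in each of the 307 macrophage nuclei, with 1 point per nucleus, coloured by group and moved by a small random offset. The dotted line separates the 71 nuclei with 2 or more MHC class II UMIs, of which 25 also hold a Lyve1-type UMI.

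Within the macrophages, MHC class II transcripts sat in a minority of nuclei. Of 307 nuclei 217 (70.7%, exact 95% interval 65.2 to 75.7) held no UMI of the 4 genes, 19 held 1 and 71 (23.1%, 18.5 to 28.3) held 2 or more, up to 45. These 71 nuclei held 97.9% of the 4 genes' UMIs. Among microglia 405 of 6136 (6.60%) held 2 or more. The microglia had a median of 1521 UMIs per nucleus and the macrophages 1749, and these shares were not matched for depth. The cut at 2 was chosen after the values were seen, so what follows is a description with no test.

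The MHC class II nuclei held fewer Lyve1-type transcripts. A Lyve1-type UMI was present in 25 of the 71 (35.2%, exact interval 24.2 to 47.5) and in 160 of the other 236 (67.8%, 61.4 to 73.7), against 0.505% of microglia. The median depth was 1445 and 1875.5 UMIs per nucleus. With each nucleus thinned to 600 UMIs the shares were 19.7% (11.2 to 30.9) and 46.2% (39.7 to 52.8), against 0.148% of microglia. These intervals pool the nuclei of all mice and leave out the spread between mice, so they are no test of a difference. Of the 71 nuclei, 14 came from Ch25h+/+ Tau+ replicate 3. Replicates 1 and 4 labelled Ch25h-/- Tau- gave 12 each. Both kinds of nuclei were found in most libraries: 14 of 16 held an MHC class II nucleus.

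Other genes differed between the same nuclei when their UMIs were pooled. Ccr2, the receptor that draws monocytes out of the blood, held 32 UMIs in the 71 MHC class II nuclei and 3 in the other 236 (246 against 4.69 CPM). Ciita, the master regulator of MHC class II, measured 262 against 9.37 CPM. Klra2, a receptor of the Ly49 family, measured 731 against 102 CPM, Creb5 369 against 39.0 CPM and the lectin gene Clec12a 131 against 40.6 CPM. Lower in the MHC class II nuclei were Cd209f (53.9 against 251 CPM), the complement receptor gene Vsig4 (38.5 against 167 CPM) and Cd38 (61.6 against 159 CPM). Mrc1 measured 2086 and 2118 CPM, but it is a gene of the rule that chose all these nuclei, so its level is no check of likeness. The 40 interferon-stimulated genes summed to 4502 CPM in the MHC class II nuclei and 2643 CPM in the others, the 7 dendritic cell genes to 339 and 394 CPM, and the 10 neuronal genes to 8035 and 15439 CPM.

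The share of MHC class II nuclei varied widely between mice. It was 9.76, 9.52, 50 and 23.5% in the 4 Ch25h+/+ Tau+ libraries and 23.1, 33.3, 19.4 and 16.7% in Ch25h+/+ Tau-. It was 7.69, 20, 11.8 and 0% in those labelled Ch25h-/- Tau+ and 29.3, 0, 33.3 and 37.5% in those labelled Ch25h-/- Tau-. The 2 libraries at 0 had 8 and 3 macrophage nuclei, and no test was made on these shares.

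By edgeR no gene of the macrophages was called for tau or for the Ch25h label, and DESeq2 called a few for tau. With 15 libraries and 3298 genes tested, edgeR called 0 genes (0%) in each of 7 contrasts: the tau effect over both genotypes and within each, the difference for the label Ch25h-/- over both tau states and within each, and the interaction. At an unadjusted p under 0.05 the counts were 142, 99, 224, 60, 120, 115 and 207 in that order. DESeq2 called 5 genes for tau over both genotypes (Rgs20, Cntnap2, Cpe, Ntm and Gpc5) and 4 for tau in the mice labelled Ch25h-/- (Kcnq5, Cntnap2, Klra2 and Ntm), and 0 in the other 5 contrasts. In libraries with at least 15 macrophage nuclei edgeR called 3 and 1 genes in the same 2 contrasts. In simulated counts (dispersion 0.2) edgeR's test for tau over both genotypes recovered 12.5% of 2-fold changes and 87.3% of 4-fold changes. Changes of 2-fold could thus mostly be missed, and 0 calls do not show that they were absent.

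The lowest p-values for tau belonged to Cntnap2, Cpe, Prex2, Gm31356 and Gpc6. Cntnap2, a neuronal adhesion gene, measured 1175, 1189, 951 and 746 CPM in the macrophages of Ch25h+/+ Tau+ and 0, 450, 153 and 591 CPM in Ch25h+/+ Tau-. It measured 343, 1700, 1613 and 1059 CPM in those labelled Ch25h-/- Tau+ and 198, 150 and 69.6 CPM in the 3 tested libraries labelled Ch25h-/- Tau-, where the fourth, left out with 3 nuclei, measured 1815 CPM. Among the 15 tested libraries those with tau were above those without, except that Ch25h-/- Tau+ replicate 1 lay below 2 of Ch25h+/+ Tau- (log2 fold change over both genotypes 2.51 ± 0.51, edgeR adjusted p = 0.246). Cpe, carboxypeptidase E (1.95 ± 0.44), Prex2 (2.64 ± 0.61), Gm31356 (2.74 ± 0.63) and Gpc6, a glypican (2.77 ± 0.64), had the same edgeR adjusted p of 0.246.

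Markers of other cells in the same libraries are given beside these genes, and none was called. All 5 tested astrocyte genes had a fold change above 0 for tau, with a median of 1.68 against 0.06 over all genes, and none was called. The 8 astrocyte genes summed to 777 to 3534 CPM in Ch25h+/+ Tau+, 84.5 to 1557 CPM in Ch25h+/+ Tau-, 561 to 6800 CPM in the libraries labelled Ch25h-/- Tau+ and 232 to 643 CPM in the tested ones labelled Ch25h-/- Tau-. Genes of fibroblasts (2 of 2, median 1.84), choroid plexus epithelium (2 of 2, median 1.52) and oligodendrocyte precursors (3 of 3, median 1.27) were above 0 as well, and 5 of 10 neuronal genes were, with a median of 0.00. The part of RNA from other cells in the genes nearest to a call was not tested.

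Klra2 had the lowest p for tau among the mice labelled Ch25h-/-. It measured 132, 24.3, 17.7 and 0 CPM in the macrophages labelled Ch25h-/- Tau+ and 257, 598 and 603 CPM in the 3 tested libraries labelled Ch25h-/- Tau-, without overlap (-3.35 ± 0.63, edgeR adjusted p = 0.125, DESeq2 adjusted p = 0.0111). In Ch25h+/+ it measured 153, 215, 353 and 271 CPM with tau and 91.7, 161, 181 and 169 CPM without, and these groups overlapped. Klra2 was also higher per UMI in the MHC class II nuclei, with 95 of its UMIs there and 65 in the others, and the shares of these nuclei in these libraries are given above.

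The lists that the study's question points to were described in the same contrasts, and none of their genes was called. For tau over both genotypes the median log2 fold change was -0.15 over 16 interferon-stimulated genes, -0.24 over 15 genes of disease-associated microglia, -0.99 over 5 MHC class II genes and -0.09 over 25 border macrophage genes, against 0.06 over all 3298. For the label Ch25h-/- among Tau+ mice all 16 interferon-stimulated genes were below 0, with a median of -0.28 against -0.01 over all genes, and all 10 neuronal genes were above 0 in the same contrast, with a median of 0.84. By library, the interferon-stimulated genes summed to 3005 to 3406 CPM in Ch25h+/+ Tau+. In replicates 1 to 4 labelled Ch25h-/- Tau+ they summed to 4164, 2817, 2039 and 810 CPM. Replicate 1 thus lay above every Ch25h+/+ Tau+ library, and replicate 4 is a library whose members held few border macrophage transcripts. Neuronal genes summed to 6961 to 16031 CPM in the Ch25h+/+ Tau+ libraries and 2331 to 37488 CPM in those labelled Ch25h-/- Tau+, and their part in the lower interferon values was not tested.

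The tau effect in macrophages (15 libraries) was set beside that in microglia (all 16 libraries). In these microglia edgeR called 520 of 12776 genes for tau (4.07%), 355 of them higher (2.78%). There 17 of 33 interferon-stimulated genes, 19 of 28 genes of disease-associated microglia and 9 of 14 MHC class I genes rose. The test of the difference between the tau effects of both types, with the library as a block, called 3 of 7346 genes (0.0408%) and gave 404 at an unadjusted p under 0.05. The 3 were Cntnap2 (2.83 ± 0.52, edgeR adjusted p = 0.0475), Cpe (2.18 ± 0.43, edgeR adjusted p = 0.0370) and the host gene of a microRNA cluster, Mir100hg (2.47 ± 0.50, edgeR adjusted p = 0.0475), each with the higher tau effect in macrophages. All 3 calls were lost with Scrublet doublets removed (edgeR adjusted p = 1, 0.239 and 1 in that order). Removing doublets left 4 macrophage nuclei in Ch25h-/- Tau+ replicate 4, so that library left the test too. Leaving out that library alone ended 2 of the 3 calls. All 3 were also lost with DESeq2's size factors and with microglia thinned to the macrophages' depth. Over the 24 alternatives the log2 difference stayed above 0, at 1.16 to 3.34 for Cntnap2, 1.33 to 2.48 for Cpe and 1.81 to 2.93 for Mir100hg. None of them was among the 7 genes called with 3 or more marker UMIs per nucleus. Leaving out any 1 of 5 libraries also ended all 3 calls: Ch25h+/+ Tau+ replicates 2 and 4, Ch25h+/+ Tau- replicate 4 and the libraries labelled Ch25h-/- Tau- replicates 3 and 4.

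Interferon and activation genes that rose with tau in microglia did not pass edgeR's test of the difference, while DESeq2 called 7 genes, 2 higher and 5 lower in macrophages. The lower ones included Ifi207 (-3.29, DESeq2 adjusted p = 0.0466), Lilrb4a (-3.91, DESeq2 adjusted p = 0.0169) and Oasl2 (-3.39, DESeq2 adjusted p = 0.0484). With 3 or more marker UMIs per nucleus, Ch25h-/- Tau+ replicate 4 and Ch25h+/+ Tau- replicate 2 kept 4 nuclei each and left the test. In that setting edgeR called 7 genes, each at an edgeR adjusted p of 0.0422. Of these H2-D1 (-1.91), Mdfic (-2.12), Myo5a (-1.34) and Gm26740 (-1.47) were lower and Bank1 (1.82), Lama2 (4.72) and Prkca (1.58) higher. Axl, a receptor for Gas6, measured 127, 76.7, 9.40 and 91.5 CPM in the microglia of Ch25h+/+ Tau+ and 2.01, 2.01, 5.88 and 5.18 CPM in Ch25h+/+ Tau-. In those labelled Ch25h-/- it measured 112, 66.5, 13.2 and 82.4 CPM with tau and 5.68, 1.42, 3.12 and 6.67 CPM without. Replicate 3 of both Tau+ groups was low, and all Tau+ libraries lay above all Tau- libraries (4.15 ± 0.64, edgeR adjusted p = 0.00368).

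In macrophages Axl measured 71.5, 33.0, 169 and 90.4 CPM in Ch25h+/+ Tau+ and 138, 0, 55.6 and 0 CPM in Ch25h+/+ Tau-. In those labelled Ch25h-/- it measured 52.7, 48.6, 53.2 and 20.8 CPM with tau and 39.6, 37.4 and 162 CPM without. All groups overlapped (0.08 ± 0.60, edgeR adjusted p = 0.999). The difference of both tau effects was -3.51 ± 0.88 (edgeR adjusted p = 0.179).

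In microglia Ifi207 measured 79.7, 49.9, 7.52 and 50.4 CPM in Ch25h+/+ Tau+ against 6.03, 4.03, 3.92 and 2.59 CPM in Ch25h+/+ Tau- (over both genotypes 3.71 ± 0.81, edgeR adjusted p = 0.0210). In macrophages it measured 153, 198, 199 and 316 CPM against 321, 64.3, 264 and 338 CPM (over both genotypes -0.22 ± 0.34, edgeR adjusted p = 0.999). Of the 7 tested Tau- libraries, 6 held more Ifi207 in macrophages than the 109 CPM of the highest Tau+ microglia, and Ch25h+/+ Tau- replicate 2 did not. The difference was -3.34 ± 0.75 (edgeR adjusted p = 0.134).

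Apoe measured 5834, 6836, 6858 and 6780 CPM in the macrophages of Ch25h+/+ Tau+ and 9816, 1382, 1626 and 5153 CPM in Ch25h+/+ Tau- (over both genotypes 0.06 ± 0.52, edgeR adjusted p = 0.999). In microglia it measured 2592, 1745, 596 and 2831 CPM against 517, 505, 70.6 and 415 CPM (over both genotypes 1.83 ± 0.41, edgeR adjusted p = 0.0247). The difference was -1.62 ± 0.67 (edgeR adjusted p = 0.788). Igf1, Cybb and Lilrb4a rose in microglia by 3.54, 3.01 and 4.2 and had tau effects of 0.44, -0.69 and -0.03 in macrophages, with differences at edgeR adjusted p = 0.390, 0.489 and 0.433.

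The lists differed in how the tau effects of both types compared, and these counts are descriptions. Of 16 interferon-stimulated genes tested in both, 15 had a lower tau effect in macrophages, with medians of -0.15 and 1.17. Of 15 genes of disease-associated microglia 14 did, with medians of -0.24 and 0.97, and all 4 MHC class II genes did, with medians of -1.0 and 1.35. Over all 3253 genes tested in both, 1309 had a lower tau effect in macrophages, with medians of 0.06 and 0.00. The 14 border macrophage genes tested in both had medians of -0.13 and 0.08. Other lists went the opposite way: none of 8 homeostatic microglia genes had a lower tau effect in macrophages (medians 0.04 and -0.37). Astrocyte genes had medians of 1.68 and -0.14, fibroblast genes 1.84 and -0.08, oligodendrocyte precursor genes 1.27 and 0.48 and choroid plexus genes 1.52 and 0.69. Of 10 neuronal genes 4 had the lower tau effect in macrophages (medians 0.00 and -0.27), beside 1309 of 3253 over all genes.

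The comparison was repeated without nuclei of high depth. The 35 macrophage nuclei of 5000 or more UMIs were left out, an alternative added after the data were seen. Ch25h-/- Tau+ replicate 4 kept 3 macrophage nuclei and so left the test as a whole library. The test of the difference then called 24 of 6921 genes (0.347%), 16 of them lower in macrophages. The lower ones included Axl (-3.23, edgeR adjusted p = 0.00445), Ifi207 (-2.95, edgeR adjusted p = 0.000196), Ifi213 (-2.95, edgeR adjusted p = 0.00206), Oasl2 (-2.91, edgeR adjusted p = 0.0188), the chemokine gene Ccl12 (-3.24, edgeR adjusted p = 0.000275), the MHC class I gene H2-D1 (-1.81, edgeR adjusted p = 0.00307), Igf1 (-2.65, edgeR adjusted p = 0.00730) and Apoe (-1.08, edgeR adjusted p = 0.0194), all chosen for naming after their values were seen. The other 8 lower ones were Cybb (-2.55), Ifi204 (-2.29), Mdfic (-2.07), March3 (-1.87), Gm26740 (-1.48), Myo5a (-1.28) and the neuronal genes Dlgap2 (-2.63) and Nkain2 (-1.87). The 8 higher ones were Rbms3 (8.27), Rgs20 (4.98), Gm16168 (4.35), Prex2 (3.24), Mir100hg (2.09), Prkca (1.94), Bank1 (1.81) and Gm31243 (1.65). Other settings gave another balance of directions. Without the 2 libraries whose members held few macrophage transcripts 21 genes were called, 17 higher and 4 lower in macrophages. Leaving out single libraries gave 0 to 28 calls. The count was 28 (24 higher, 4 lower) when Ch25h+/+ Tau- replicate 2 was left out and 23 (9 higher, 14 lower) for Ch25h+/+ Tau+ replicate 3. It was 10 (3 higher, 7 lower) for the library labelled Ch25h-/- Tau+ replicate 3 and 5 (4 higher, 1 lower) for the one labelled Ch25h-/- Tau- replicate 1.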

How the data were processed

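Nuclei of the hippocampus of 16 mice were profiled with a 10x 3' kit (version 3.1), and the deposited matrices hold UMI counts per gene and barcode that the authors made with Cell Ranger. The matrix headers name version 4 of that software, while the submitters' processing notes name Cell Ranger 3.1.0, Seurat 3.0.182 and the build mm10. Whether intronic reads were counted is not given in the sources used here. Total counts were 51270831 to 84870650 UMIs per library.

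The fit of the tau effect in microglia alone used all 16 libraries. Otherwise UMIs were summed per library and cell type over libraries with at least 5 macrophage nuclei (15 of 16). They were tested with edgeR 4.0.16 (R 4.3.3, limma 3.58.1; quasi-likelihood, robust, TMM, filterByExpr with min.count 5 and min.total.count 15) at a Benjamini-Hochberg threshold of 0.05, without the 14 genes of the rule. Macrophages and microglia were compared with the library as a block, and the tau difference was the term of cell type by tau in that fit, which also held cell type by Ch25h. CPM are counts scaled by the sum of a cell type or library. Shares were compared by exact permutation tests, and intervals are exact Clopper-Pearson at 95%, covering counting error only. Python 3.11.15, scanpy 1.11.5, scipy 1.17.1, numpy 2.4.6 and matplotlib 3.10.9 were used, and the tests were tried on simulated data.

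Alternatives were DESeq2 1.42.0, DESeq2's size factors, min.count 10, no filter, 3 or more marker UMIs, Scrublet doublets removed (otherwise doublets were treated only by the exclusions of the rule), libraries with at least 15 macrophage nuclei, microglia thinned to the macrophage total, a block for the split of libraries, and each library left out. Added after the data were seen were macrophage nuclei under 5000 UMIs, leaving out Ch25h-/- Tau+ 4 and Ch25h+/+ Tau- 2 together, and including the library with 3 nuclei. Apart from that last setting, a library left with fewer than 5 macrophage nuclei was dropped from the gene tests of the setting.

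The members and the gene lists were chosen with earlier results of these data known. Genes named were the 12 highest and 12 lowest called by fold with at least 100 UMIs over both types, the 5 of lowest p where fewer than 5 were called, a fixed set, and list members. The rule limits each list to its 4 members of most macrophage UMIs, and those named beyond them, the genes of the MHC class II split and the Ms4a, Ifi200 and Cd209 clusters were chosen after their values were seen. Replicates are separate GEO samples; nothing in the labels says more of how mice were paired or batched, and p-values measure the spread between these samples. Values of some genes are not reported here.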

Additional observations from a re-analysis of the deposited data

Results flagged for a closer look

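In 63 groups of 4 libraries, the highest or lowest library was compared with the others by its gap over the range of the group (Dixon's test at 95%), and chance alone gives about 1 in 20 such groups. Macrophages made up 10.1% of immune nuclei in Ch25h+/+ Tau- replicate 3, against 2.47, 2.56 and 3.75% in the other libraries of the group. The median macrophage nucleus of Ch25h-/- Tau+ replicate 4 held 5639.5 UMIs, against 2002, 2181 and 2308. The border macrophage genes outside the rule summed to 2411 CPM in Ch25h+/+ Tau- replicate 2, with the other libraries at 10465 CPM or more, and astrocyte genes summed to 1557 CPM in Ch25h+/+ Tau- replicate 3, with the others at 321 CPM or less.

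Among single genes in macrophages, Apoe measured 5834 CPM in Ch25h+/+ Tau+ replicate 1, below the 6780 to 6858 CPM of the others. Axl measured 20.8 CPM in Ch25h-/- Tau+ replicate 4, against 48.6 to 53.2 CPM. Stab1 measured 2124 CPM in Ch25h+/+ Tau+ replicate 4, against 997 to 1175 CPM, and 386 CPM in Ch25h+/+ Tau- replicate 2, against 1515 to 1743 CPM.

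The tau effect differed between macrophages and microglia by the test of the difference for Cpe (2.18, edgeR adjusted p = 0.0370), Mir100hg (2.47, edgeR adjusted p = 0.0475) and Cntnap2 (2.83, edgeR adjusted p = 0.0475). None of the 3 calls held with Scrublet doublets removed, a setting that also dropped the library Ch25h-/- Tau+ replicate 4.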

How the results depend on the processing

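Between macrophages and microglia 1399 genes were called, 623 with microglia thinned to the macrophage total and 3247 without a filter, with 1221 to 1625 on leaving out single libraries. Of 125 named genes called, 99 kept their call under every alternative that tested them and 26 lost it under at least 1, among them Scarb2 (15 of 24), Nfatc2 (13 of 24), Spi1 (10 of 24), Maf (6 of 24) and Ifi213 (5 of 16); Rbfox3, a neuronal gene, turned to -1.25 in nuclei under 5000 UMIs. The tau difference called 3 genes, 7 with 3 or more marker UMIs, 7 with DESeq2, 0 with DESeq2's size factors, with doublets removed, with min.count 10 and with thinned microglia, 24 in nuclei under 5000 UMIs, 46 without a filter, 21 without both libraries whose members held few macrophage transcripts, and 0 to 28 on leaving out single libraries. Of its 3 calls Cntnap2 was lost under 15 of 24 alternatives, Cpe under 12 and Mir100hg under 15. In macrophages tau over both genotypes called 0 genes, 5 with DESeq2, 3 in libraries with at least 15 macrophage nuclei and 33 without a filter. Tau in the mice labelled Ch25h-/- called 0, then 4, 1 and 36 in the same order, and 0 to 1 on leaving out single libraries. Without a filter the label Ch25h-/- gave 3 calls in Tau+, 6 in Tau- and 2 over both, and the interaction 4 (0 to 1 on leaving out single libraries). In the 7 contrasts within macrophages a block for the split of libraries gave 0 calls, and it was not fitted in the comparisons with microglia. Of 132 share alternatives none had an adjusted p under 0.05 (lowest 0.171). The tau effect on the share over both genotypes was -1.51 as a percentage of immune nuclei and -0.0193 to 0.0575 on leaving out single libraries, and that of the label Ch25h-/- was -0.0619 to 0.0148. The cause of these changes was not tested. No block for the replicate number was fitted, since the numbers were given in accession order and the labels name no pairs of mice. With 307 macrophage nuclei and 770150 UMIs, the filter on low counts left 3298 genes in the tests of macrophages.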
